A study of Mus musculus with 24 samples.

Results

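The genes linked to neurodegeneration that are followed here were App, Aplp1, Aplp2, Bace1, Psen2, Mapt, Apoe, Clu and Prnp. They were read in the hippocampus of young, adult and old mice of both sexes. Every probe whose annotated symbol is one of these 9 genes was taken, which gave 12 of the 25697 probes of the array table and 9 of the 16593 genes it names. The rule itself uses symbols and no measured value. Mapt had 4 probes and each of the other genes had 1. A probe was kept for testing if every array of some group of 4 read above an intensity of 16. Of the 12, 11 were kept, against 11901 of 25697 probes in all. The probe that was left out was Mapt probe 4, which was above 16 in 12 of 24 arrays.

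Amyloid precursor protein (APP, from App) is a membrane protein of neurons, and Aplp1 and Aplp2 encode its close relatives. The protease BACE1 makes the first cut toward the amyloid-beta peptide, and the gamma-secretase complex, whose catalytic subunit is either of the presenilins, makes the last. Tau (from Mapt) binds and stabilises microtubules and forms tangles in disease. Apolipoprotein E and clusterin carry lipids between glia and neurons and bind amyloid-beta, and the prion protein (from Prnp) is a surface protein that is itself the infectious agent once misfolded.

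The mice were C57BL6 by the labels and of the NCr substrain by the study's methods, from the aging colony of the National Institute on Aging. Neither source names a transgene, an induced mutation or a drug for any group, so they are mice of normal aging and not a disease model. By the methods the females were handled for daily vaginal lavage over some weeks to follow the cycle, which the males had not, so handling and sex cannot be told apart. There were 6 groups of 4 mice with 1 array each, namely young, adult and old females (FY, FA and FO) and young, adult and old males (MY, MA and MO). By the study's methods these ages were 3, 12 and 24 months, and the females were killed in diestrus. The dissected hippocampus held CA1 to CA3 and the dentate gyrus. The paper reports that the old females were reproductively senescent, in permanent diestrus, so in FO age and reproductive state cannot be told apart. Whole tissue was measured, so fewer cells of a type and less RNA per cell cannot be told apart. No probe's level is set against another probe's, and fold changes are within a probe. P-values of group comparisons measure the spread between mice within groups, and the number of arrays limits the precision. Those of correlations come from permutation over mice whatever their group, so differences between groups enter them.

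Between 11775 and 12437 probes were above 16 on an array, and arrays correlated at 0.952 to 0.994 with each other. Of 7 markers of CA1 and dentate neurons, 5 were tested, and their summed intensity was 3227 in MO replicate 3, the lowest of the series, against 5507 to 7386 over all arrays of the other 5 groups. MO replicates 1 and 3 were the arrays farthest from their group mean (root mean square deviation of 0.356 and 0.335 on the log2 scale, against 0.141 to 0.272 in all other arrays). FY replicate 3, FO replicate 3 and MO replicate 1 also shared a pattern in several of the 9 genes, which is described with Aplp1 and Aplp2.

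**Figure D1:**
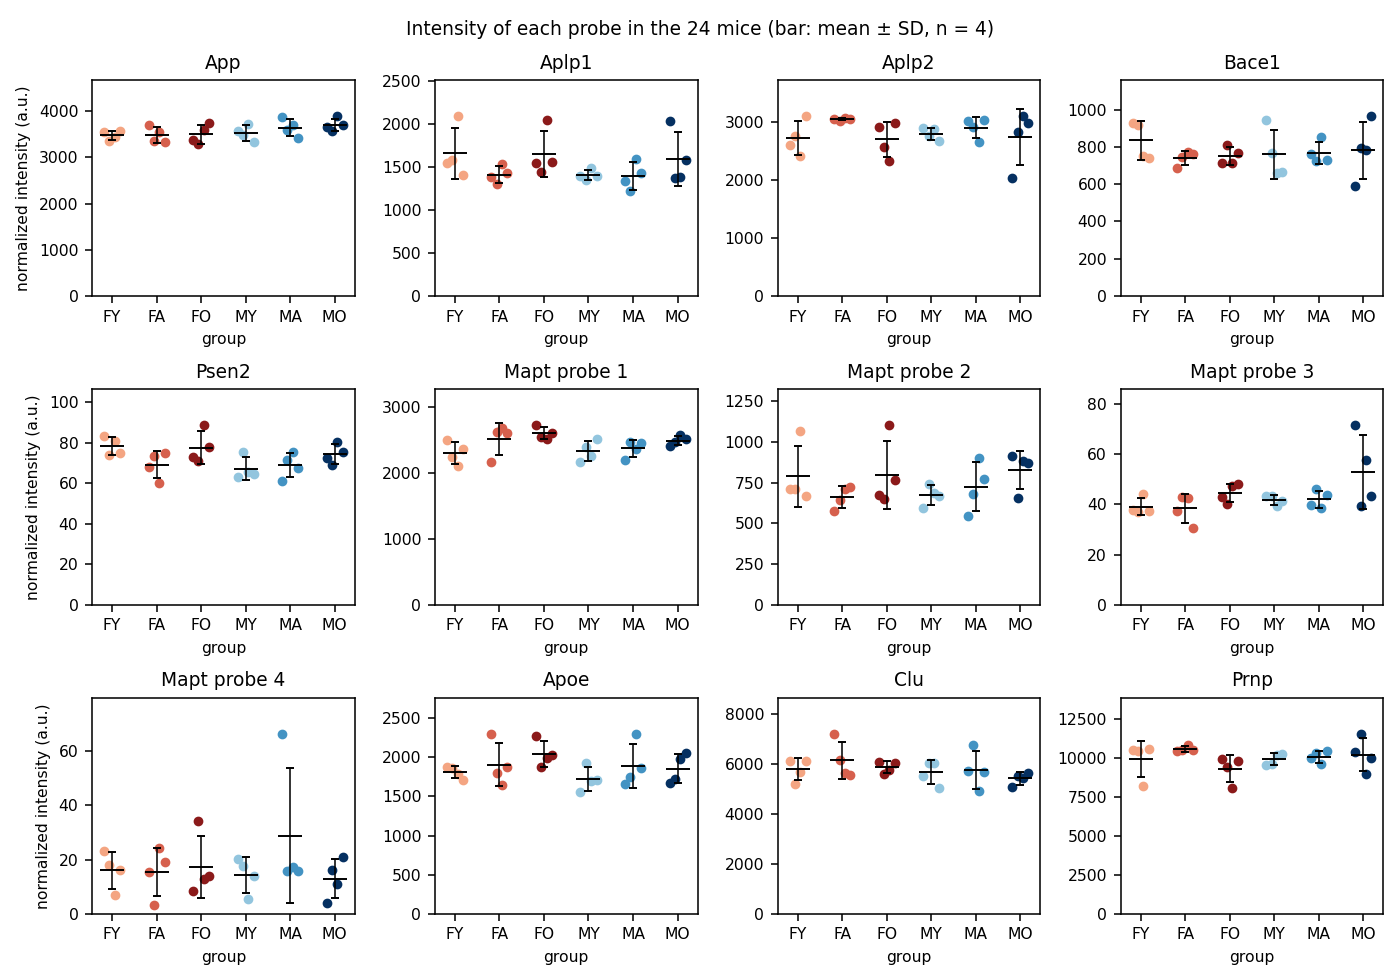
Normalized intensity (arbitrary units, linear axis from 0, scaled by panel) of the 12 probes in the 6 groups. Each point is 1 mouse and the bar is the group mean ± SD (n = 4). Groups overlapped for most probes, and Mapt probe 1 was above 2500 in every FO mouse.

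The levels of these genes were tested between ages, between sexes and for unequal aging of the 2 sexes, since the study asked whether the hippocampus ages alike in females and males. None of the 11 probes passed limma's test in any of 12 comparisons. Over all probes the share called at an adjusted p of 0.05 was low as well. With age it was 0.714% (FO against FY), 0.361% (FO against FA) and 0% (FA against FY) in females, and 0.101% (MO against MY), 0% (MO against MA) and 0% (MA against MY) in males. Between the sexes it was 0.176% for FO against MO, 0.0504% for FA against MA and 0.0336% for FY against MY. It was 1.27% for old against young averaged over the sexes, 0.336% for female against male averaged over the 3 ages and 0% for the female change less the male change. Against such shares a count of 0 of 11 is near the background and is no result about these genes. The methods' test (analysis of variance by sex and age, pairwise post hoc tests, a fold of 1.2 and no adjustment) also called 0 of the 11 in each of the 9 pairwise comparisons. Over all probes it called 2.79% (FO against FY), 1.94% (FO against FA), 2.78% (FA against FY), 3.13% (MO against MY), 1.64% (MO against MA) and 0.546% (MA against MY), and 4.47%, 2.88% and 2.78% for females against males at the old, adult and young age.

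What the data give is therefore a set of limits on how far each gene moved. At an unadjusted p of 0.05, 5 of 132 changes were counted. They were Mapt probe 1 in FO against FY, Mapt probes 1 and 3 in old against young, Prnp in FO against FA and Psen2 in FY against MY. Over all probes 6.65% were under 0.05 in FO against FY, 11.5% in old against young, 5.27% in FO against FA and 6.97% in FY against MY. The 95% intervals for old against young averaged over the sexes lay between 0.850-fold (Bace1) and 1.38-fold (Mapt probe 3). Those for female against male averaged over ages lay between 0.795-fold and 1.19-fold. Within a sex they were wider, at 0.757-fold to 1.42-fold for FO against FY and 0.833-fold to 1.56-fold for MO against MY. For the female change less the male change they ran from 0.585 to 1.29 as a ratio of folds. The median change of the 11 probes in old against young was 0.07 on the log2 scale, where that of all probes was -0.02. Of the 11, 7 were higher in old mice, with Mapt probes 1, 2 and 3 among them, so 1 gene counts more than once. Aplp2, Bace1, Clu and Prnp were lower. The female change less the male change from young to old was -0.29 to 0.08 on the log2 scale with standard errors of up to 0.24, and it passed for none of the 11 probes.

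**Figure D2:**
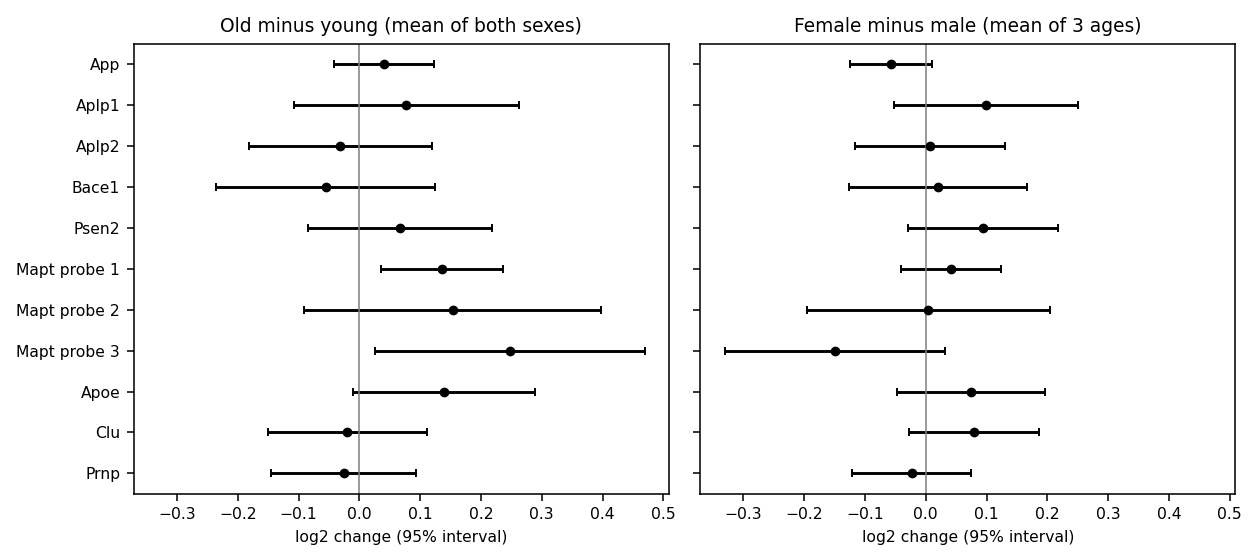
Change of the 11 tested probes in log2 units, for old minus young (left) and female minus male (right), with 95% intervals from limma. Intervals of Mapt probes 1 and 3 lie above 0 on the left before adjustment over all probes, and every interval on the right includes 0.

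App had the steadiest level of the 9 genes. Its intensities were 3544, 3347, 3442 and 3580 in FY, 3695, 3346, 3560 and 3335 in FA, and 3379, 3288, 3589 and 3745 in FO. In males they were 3563, 3486, 3729 and 3327 in MY, 3871, 3602, 3698 and 3417 in MA, and 3670, 3581, 3894 and 3697 in MO. The groups overlapped throughout, and the highest mouse was MO replicate 3, the array with the low CA1 and dentate markers. By mean the order was MO, MA, MY, FO, FA and FY, from 3710 ± 132 down to 3478 ± 105 (SD, n = 4). No neighbours in that order were apart by more than the larger SD, which held for all 60 neighbouring pairs of group means over the 12 probes. The ratio of old to young was 1.03 with a 95% interval of 0.971 to 1.09 (limma adjusted p = 0.767). Males had the higher mean at each age, by 0.06 on the log2 scale averaged over ages, with a standard error of 0.03 and an adjusted p of 0.595 from limma. The within-group SD of App was 0.07 on the log2 scale, the 48th lowest of 11901 probes and the 32nd lowest among the 1191 probes with the highest levels.

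Aplp1 and Aplp2, the paralogs of App, were ordered by single mice more than by groups. Aplp1 read 1550, 1587, 2093 and 1411 in FY, 1550, 1442, 2049 and 1565 in FO, and 2042, 1372, 1387 and 1578 in MO. FY replicate 3, FO replicate 3 and MO replicate 1 were thus the 3 highest of 24, and the next mouse was an MA at 1592. FA had a mean of 1414 ± 98.3, MY of 1410 ± 59.0 and MA of 1397 ± 158. The change from young to old was 0.08 (standard error 0.09, adjusted p = 0.813, limma), and it was 0.02 without those 3 arrays. The 3 were picked as the highest for Aplp1, so changes without them, here and below, are no further tests.

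For Aplp2 the same 3 arrays were the lowest. It read 2602, 2754, 2409 and 3092 in FY, 2910, 2567, 2319 and 2978 in FO, and 2028, 2828, 3091 and 2971 in MO. The 4 FA mice lay together at 3053, 3013, 3053 and 3050, above every FO mouse. MA had a mean of 2897 ± 178 and MY of 2791 ± 103. FO against FA gave -0.18 on the log2 scale (standard error 0.10, adjusted p = 0.886, limma), and 5.47% of all probes had no overlap between these groups. Old against young gave -0.03 (standard error 0.07, adjusted p = 0.920) and turned to 0.04 without the 3 arrays.

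**Figure D3:**
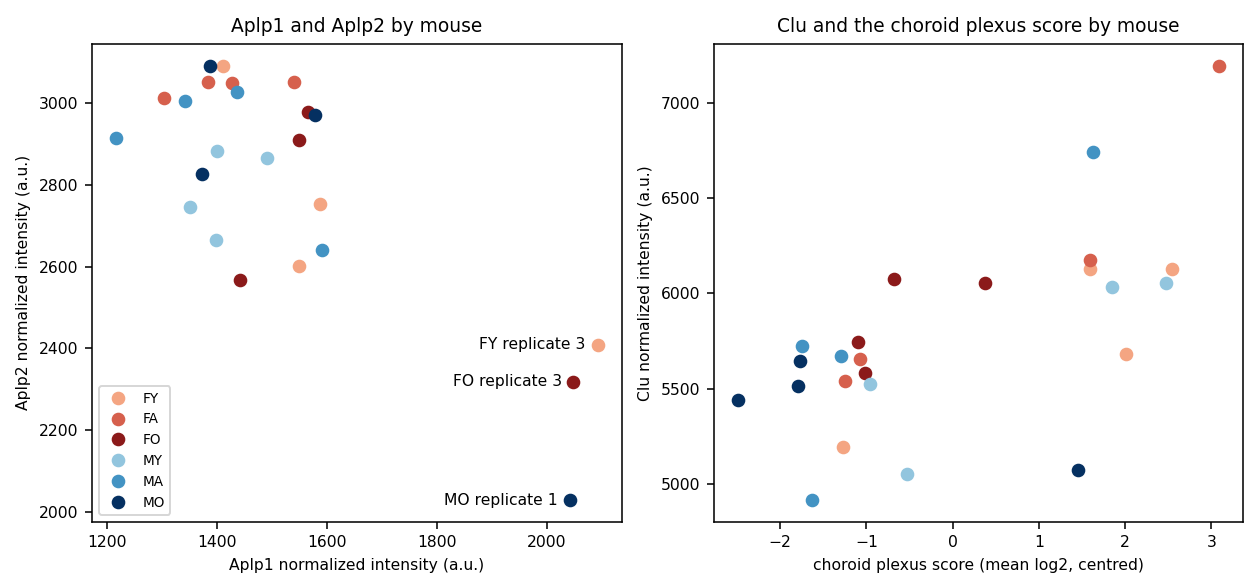
Left, Aplp1 against Aplp2 intensity (arbitrary units) in the 24 mice, coloured by group. FY replicate 3, FO replicate 3 and MO replicate 1 stand apart, with Aplp1 at 2042 to 2093 and Aplp2 at 2028 to 2409. Right, Clu intensity against the choroid plexus score (mean log2 of 5 markers, centred), which leaves a gap between 0.38 and 1.46.

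The 3 arrays belonged to 3 groups and shared more than these genes. They were also the 3 highest for Mapt probe 2, at 1064, 1103 and 911, and FY replicate 3 and FO replicate 3 were the 2 lowest for Prnp, at 8175 and 8033, with MO replicate 1 at 10358. Their astrocyte score, the mean log2 of 9 astrocyte markers centred over arrays, was 0.17, 0.31 and 0.25, and the other 21 arrays reached at most 0.12. Gfap, the astrocyte filament protein, is 1 of the 9 and read 184, 436 and 398 against 76.6 to 197. From the other 8 markers the score was 0.12, 0.12 and 0.07, against at most 0.05. Gsk3a, a kinase of the glycogen synthase kinase family that phosphorylates tau, read 137, 112 and 301 in them and 21.9 to 35.9 in the other 21. Another 2 genes, chosen after their values were seen, were high in the same arrays. Calr, a chaperone of the endoplasmic reticulum, read 451, 345 and 765 against at most 135. A probe of the kinase Mink1 read 163, 117 and 166 against at most 47.2.

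Over all 11901 probes the deviations from the group means correlated at 0.55 between FY replicate 3 and FO replicate 3, the highest of 240 pairs of arrays from different groups. The correlation with MO replicate 1 was 0.44 for FY replicate 3, which ranked 5, and 0.19 for FO replicate 3, which ranked 45. Aplp1, Aplp2 and the astrocyte score all set the same 3 arrays apart, so no correlation over the 24 mice is given for them. What sets these arrays apart was not tested.

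Neither of the secretase genes Bace1 and Psen2 passed the test with age or sex. Bace1 had means of 835 ± 104 in FY, 742 ± 37.0 in FA, 751 ± 47.8 in FO, 760 ± 134 in MY, 767 ± 59.4 in MA and 782 ± 153 in MO (SD, n = 4). Single mice ran from 590 in MO replicate 1 to 965 in MO replicate 4, so old males alone spanned the whole range. The old mice were at 0.962-fold of the young, with an interval of 0.850 to 1.09 (adjusted p = 0.872, limma).

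Psen2, which encodes presenilin 2, read 83.2, 73.8, 80.6 and 75.0 in FY and 62.9, 75.6, 65.5 and 64.6 in MY. MY replicate 2 overlapped the FY mice and the other MY mice lay below them. FY against MY was 0.22 on the log2 scale (standard error 0.10, adjusted p = 0.716, limma). FO had a mean of 77.6 ± 7.93 and MO of 74.4 ± 4.75, and FA and MA of 69.2 ± 6.58 and 69.0 ± 6.16. The change from young to old was 1.05-fold with an interval of 0.944 to 1.16 (adjusted p = 0.800).

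Mapt was the gene of the 9 with the lowest adjusted p for age, and it did not pass. Probe 1 (ILMN_2740020), read 2500, 2250, 2109 and 2372 in FY, 2164, 2617, 2678 and 2607 in FA, and 2728, 2554, 2521 and 2605 in FO. All FO mice were above all FY mice, and FA mice lay in both ranges. In males it read 2170, 2395, 2261 and 2512 in MY, 2202, 2472, 2369 and 2457 in MA, and 2406, 2471, 2574 and 2514 in MO, and these groups overlapped. Mapt probe 1 was the only 1 of the 11 probes without overlap between FO and FY, which 5.37% of all probes showed. FO against FY was 0.18 on the log2 scale (standard error 0.07, adjusted p = 0.565) and MO against MY was 0.10 (standard error 0.07, adjusted p = 0.612, both limma). Averaged over the sexes old against young was 0.14 (standard error 0.05, interval 0.04 to 0.24), or 1.10-fold, with an adjusted p of 0.228.

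Mapt probes 2 and 3 had the same sign for age and larger errors. Probe 2 (ILMN_1257750) is annotated to the same transcript as probe 1 and gave 0.15 for old against young (standard error 0.12, adjusted p = 0.685, limma). FO had a mean of 798 ± 210, FY of 788 ± 185, MO of 830 ± 117, MA of 726 ± 149, MY of 672 ± 60.8 and FA of 662 ± 66.5. The pair disagreed on single mice, since FY replicate 3 was the lowest of 24 on probe 1 and the second highest on probe 2. Probe 3 (ILMN_3034121), annotated to another transcript of the gene, read 71.5, 39.2, 57.5 and 43.4 in MO and 30.4 to 47.9 over the mice of the other 5 groups. Its change from young to old was 0.25 (standard error 0.11, adjusted p = 0.368). It was 0.09 without MO replicates 1 and 3 and 0.18 without the 3 arrays with high Aplp1. Probe 4 (ILMN_3107817), annotated to the same transcript as probe 3, was not tested and ran from 3.28 to 66.4.

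Apoe, expressed by astrocytes and by activated microglia, read 1879, 1858, 1784 and 1707 in FY, 2297, 1802, 1649 and 1871 in FA, and 2268, 1876, 1991 and 2025 in FO. Old females overlapped young females only between 1876 and 1879. In males it read 1552, 1922, 1699 and 1715 in MY, 1660, 1745, 2294 and 1861 in MA, and 1677, 1722, 1974 and 2051 in MO. Averaged over the sexes its level in old mice was 1.10-fold that in young mice, with an interval of 0.993 to 1.22 (adjusted p = 0.480, limma). On the log2 scale FO against FY was 0.17 and MO against MY was 0.11, each with a standard error of 0.10 (adjusted p of 0.863 and 0.707).

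Markers of microglia moved with age in the same mice. Of 11 markers 8 were tested, and 5 of the 8 were called higher in FO than in FY, against 0.714% of all probes called. Of the 8, 0 were called in MO against MY, where 0.101% of all probes were called. At an unadjusted limma p of 0.05, 6 were higher there, against 11.4% of all probes. The median change of the list was 0.40 on the log2 scale. For the female change less the male change 0 of the 8 were called, as were 0% of all probes, so that count decides nothing. At an unadjusted limma p of 0.05, 5 of the 8 were higher, against 5.87% of all probes, with a median of 0.43 (log2). In FO against MO 1 of the 8 was called, against 0.176% of all probes, and 6 were higher at that p, against 9.68%. The paper reported larger increases in females for several microglial genes by qPCR and for C1q by immunoblot. The summed intensity of the 8 was 1457 to 1644 in FY, 1678 to 1774 in FA and 2267 to 3341 in FO. In males it was 1342 to 1578 in MY, 1464 to 1887 in MA and 1731 to 2172 in MO. A sum weighs the brightest markers most. Marker by marker, 0 of the 8 were higher in FA than in FY at an unadjusted limma p of 0.05. There 2 were lower, against 11% of all probes. P2ry12 was lower in FO than in FY, at -0.25 on the log2 scale (standard error 0.25, adjusted p = 0.971, limma). None of the tested markers was at 0. Apoe and the microglia score (mean log2 of the 8, centred) had a Pearson r of 0.52 over 24 mice (permutation p = 0.00925, adjusted over 63 relations 0.0728) and a Spearman rho of 0.53 (p = 0.00866, adjusted 0.119). Without the 2 mice farthest from the median score r was 0.52, and with the group means removed it was 0.34. The part of microglia in the level of Apoe was not tested.

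Clu, a secreted chaperone of astrocytes, neurons and choroid plexus, had means of 5782 ± 445 (FY), 6141 ± 754 (FA), 5864 ± 241 (FO), 5665 ± 478 (MY), 5762 ± 750 (MA) and 5417 ± 245 (MO). The highest mouse was FA replicate 1 at 7195 and the lowest was MA replicate 3 at 4915, so adult mice spanned the whole range. For old against young the ratio was 0.987 with an interval of 0.901 to 1.08 (adjusted p = 0.947, limma).

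Markers of choroid plexus, the ventricular tissue that secretes cerebrospinal fluid, were uneven between mice. Of its 9 markers 5 were tested, and their summed intensity ran from 1764 to 17732 in FY, 1619 to 19853 in FA, 2790 to 9902 in FO, 2572 to 16883 in MY, 1011 to 13853 in MA and 769 to 17196 in MO. The score was above 1 in 3 FY, 2 FA, 2 MY, 1 MA and 1 MO mice and in 0 FO mice. No mouse had a score between 0.38 and 1.46, so the mice fall into a set of 9 above 1 and a set of 15. FA replicate 1 had both the highest score and the highest Clu. Over all 24 mice Clu and the score had a Pearson r of 0.63 (permutation p = 0.00077, adjusted over 63 relations 0.0162) and a Spearman rho of 0.64 (p = 0.00103, adjusted 0.0649). This r was 0.51 without the 2 mice farthest from the median score and 0.68 with the group means removed, and it spans the gap between the sets. Within the 9 mice r was 0.54 (exact permutation p = 0.138, adjusted over 2 relations 0.209; rho 0.27, exact p = 0.493, adjusted 0.493). Within the 15 mice r was 0.34 (permutation p = 0.209, adjusted 0.209; rho 0.31, p = 0.260, adjusted 0.493). Without the 2 mice farthest from each set's median score these r were 0.12 and 0.07. With the score as a covariate the change of Clu from young to old went from -0.02 to 0.08 on the log2 scale. Most of the score's markers were lower in old mice, so this covariate is not separate from age. The part of choroid plexus in the level of Clu was otherwise not tested.

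Prnp read 10468, 10404, 8175 and 10581 in FY, 10400, 10505, 10824 and 10498 in FA, and 9892, 9433, 8033 and 9782 in FO. Every FA mouse was above every FO mouse, as for Aplp2, and these 2 of the 11 probes stand against 5.47% of all probes. FO against FA was -0.19 on the log2 scale (standard error 0.08, adjusted p = 0.886, limma), and it was -0.12 without the 3 arrays with high Aplp1. In males the means were 9889 ± 388 (MY), 10065 ± 378 (MA) and 10198 ± 1061 (MO). The order by mean was FA, MO, MA, FY, MY and FO. Old mice were at 0.982-fold of young mice with an interval of 0.904 to 1.07 (adjusted p = 0.919).

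Genes that act with these 9 were taken as 7 lists of 67 genes, of which 55 were on the array and 44 were tested. limma called 0 of the 44 in any of the 12 comparisons. In old against young, 3 of 44 were higher and 1 was lower at an unadjusted p of 0.05, and in female against male 3 were higher and 0 lower, where 11.5% and 10.3% of all probes were under 0.05. In FO against MO 6 were higher and 0 lower, against 9.68% of all probes. The median change of the 44 from young to old was -0.01 on the log2 scale, where that of all probes was -0.02.

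Ide, the insulin-degrading enzyme that also degrades amyloid-beta, had the lowest adjusted p of the 44 for age. It read 454, 328, 566 and 334 in FY, 465, 481, 739 and 515 in FO, 248, 331, 365 and 333 in MY, and 648, 410, 476 and 416 in MO. All old males were above all young males, where 5.79% of all probes had no overlap, and old and young females overlapped. Over both sexes the change was 1.41-fold with an interval of 1.15 to 1.74 and an adjusted p of 0.109 (limma). FY replicate 3, FO replicate 3 and MO replicate 1, the 3 arrays described with Aplp1, were each the highest of their group. Each young and old array was left out in turn. Without FY replicate 3, the highest young mouse, Ide passed, at 0.58 on the log2 scale (limma adjusted p = 0.0474). Without all 3 it was 0.43 (adjusted p = 0.152). Removal of the highest young mouse raises the change, so this pass is no further test of Ide. Ece1, an endothelin-converting enzyme and the other tested gene of amyloid-beta degradation, gave -0.04 on the log2 scale (standard error 0.06, adjusted p = 0.875).

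Apod, an apolipoprotein of glia, was the gene with the largest change among 9 tested genes of lipoprotein and cholesterol transport. It read 1272, 1355, 1348 and 1524 in FY and 2404, 1804, 1613 and 3340 in FO. Every FO mouse was above every FY mouse, and 5.37% of all probes had no overlap between these groups. In males it read 1515, 1417, 1320 and 840 in MY and 933, 2170, 2823 and 2376 in MO, where MO replicate 1 lay inside the range of the young. Old against young was 0.65 on the log2 scale, or 1.57-fold with an interval of 1.18 to 2.10 (adjusted p = 0.127, limma). With each young and old array left out in turn, Apod passed without MO replicate 1, at 0.83 on the log2 scale (limma adjusted p = 0.00700). Without all 3 of the arrays described with Aplp1 it was 0.90 (adjusted p = 0.00983). MO replicate 1 was the lowest old mouse, so its removal raises the change, and these passes are no further test of Apod.

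Bin1, a membrane-bending protein of endocytosis, was the gene with the largest change among 11 tested adaptors and trafficking genes of APP. It had means of 1658 ± 71.0 in FY and 1886 ± 179 in FO, and of 1646 ± 107 in MY and 1801 ± 189 in MO. Old against young was 0.15 on the log2 scale (standard error 0.05, adjusted p = 0.212, limma), and the same 3 arrays were again the highest of their groups. Among 7 tested secretase genes the largest change was that of Ncstn, the nicastrin subunit of gamma-secretase, at -0.16 (standard error 0.12, adjusted p = 0.665). It read 367 in MO replicate 1 and 675 to 724 in the other MO mice, and without that array the change of Ncstn was -0.04. FY replicate 3 and FO replicate 3, at 452 and 516, were likewise the lowest of their groups. Gsk3a had the largest value among 11 tau kinases and microtubule-associated proteins, at 0.33 with a standard error of 0.41 (adjusted p = 0.822), which went to -0.05 without the 3 arrays that stand apart. Of single arrays, leaving out MO replicate 1 gave -0.07, FO replicate 3 gave 0.08 and FY replicate 3 gave 0.61. Sprn, which encodes the prion-like protein shadoo, had -0.14 (standard error 0.12, adjusted p = 0.737) among 3 tested genes of the prion protein list. It read 71.6 in MO replicate 3 and 118 to 157 in the other MO mice, and the change was -0.03 without that array. Sncg, gamma-synuclein, had -0.03 (standard error 0.12, adjusted p = 0.954).

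**Figure D4:**
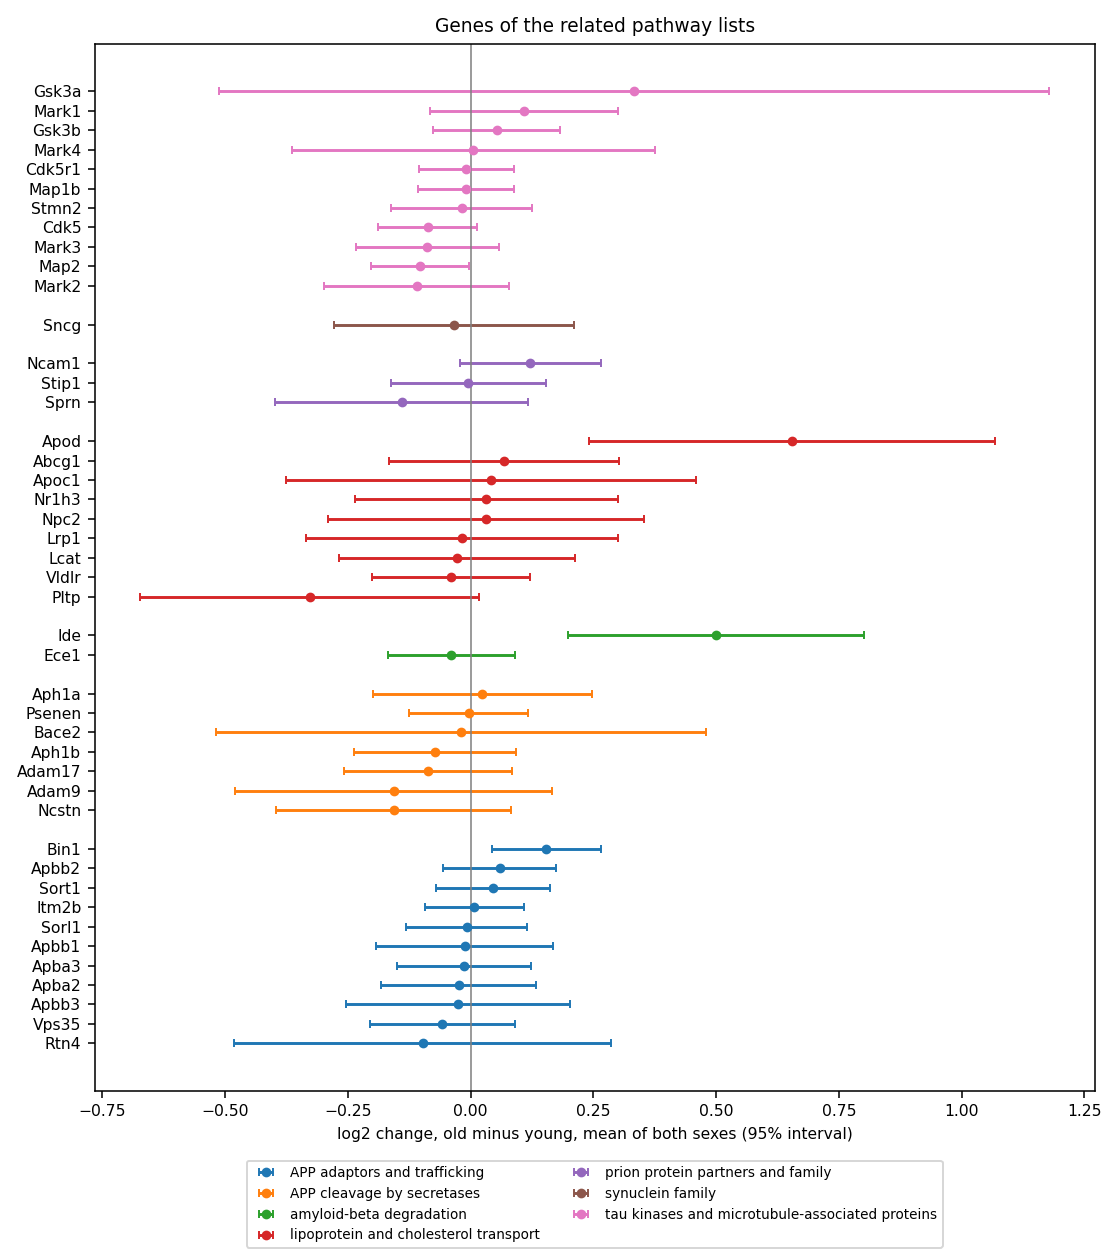
Change from young to old (log2, mean of both sexes, 95% interval from limma) of the 44 tested genes, coloured by list. Apod at 0.65 and Ide at 0.50 lie farthest to the right, the interval of Gsk3a is the widest, and no gene passed limma's test with all arrays in.

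Genes whose levels ran most like those of App, Mapt, Apoe and Clu over the 24 mice were named as a description. Clu was most like Tspo (r = 0.87), Cd63 (0.84) and Olfml1 (0.84). Apoe was most like Rps25 (0.78), Itgb5 (0.74) and S100a6 (0.69). Mapt probe 1 was most like Trp53rkb (0.69), Ddit3 (0.68) and Tmem119 (0.68), and App was most like Manba (0.63), Zfp410 (0.61) and Gpx4 (0.60). These are the highest positive correlations in a search of all kept probes of other named genes, in mice that share groups and array processing.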

How the data were processed

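Hippocampal RNA of 24 mice was hybridised to Illumina Mouse Ref8 arrays. The deposited intensity values were made by the authors with average normalization and background subtraction in GenomeStudio (2011.1 in the submitters' processing notes). They are linear, every array has a mean of 206.64, and 22.4% of values are below 0. A table with 48 columns that match no sample by name was not used here, so chip could not be tested as a batch.

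Intensities were floored at 16 and log2 transformed. Probes were kept (46.3%) where every array of some group read above 16. Of all probes 23978 carried 1 gene symbol, 1719 none and 0 several. limma 3.58.1 in R 4.3.3 fitted 1 linear model over the 6 groups with a trended empirical Bayes step, and every adjusted p is its Benjamini-Hochberg value over the 11901 kept probes. The fit was tested on simulated data. The methods' test, a two-way analysis of variance with Newman-Keuls comparisons and a fold limit of 1.2, was run on the same values. Correlations were tested by permutation over mice without regard to group.

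The 9 genes and the lists were chosen with earlier results of these data known. All probes of the 9 genes are named, and of each list the gene with the largest change from young to old where limma called none. The probe with the highest mean stands for a gene. Alternatives were floors of 8 and 32, other filters, quantile normalization, no trend, only the compared groups, the replicate number as a block, a choroid plexus covariate and arrays left out. Leaving out the 3 arrays with high Aplp1, and arrays for the list genes, was chosen after seeing the data. Same-numbered mice of different groups mostly did not deviate together (median r of 0 over 60 pairs, -0.45 to 0.55), so numbers were not taken as pairs. The highest r was that of FY replicate 3 and FO replicate 3, and a chip shared by some same-numbered mice was not tested.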

Additional observations from a re-analysis of the deposited data

Results flagged for a closer look

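In 7 of 72 groups of 4 mice, 1 mouse lay apart from the other 3 by more of the group's whole range than Dixon's critical value at the 95% level allows. Chance flags about 1 in 20 groups. Mapt carried 5 of the 7. On probe 2, FY replicate 3 read 1064 where the others read 668 to 711, and MO replicate 2 read 656 where the others read 867 to 911. On probe 1, FA replicate 1 read 2164 against 2607 to 2678. On probe 3, FY replicate 3 read 44.0 against 37.0 to 37.6. On probe 4, MA replicate 1 read 66.4 against 15.8 to 17.5. Prnp in FY replicate 3 read 8175 against 10404 to 10581. Aplp2 in FA replicate 2 read 3013 against 3050 to 3053, a gap of little size in a tight group. FY replicate 3, which is 1 of the 3 arrays with high Aplp1, accounts for 3 of the 7.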

How the results depend on the processing

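All 260 alternative counts of called probes among the 9 genes were 0, the replicate block and the methods' test included. Of 725 alternative values of single changes 0 were called, the lowest adjusted p was 0.166, and 33 changed sign, from values that had been between -0.06 and 0.02. With the replicate block Mapt probe 1 in old against young stayed at 0.14 on the log2 scale. With the choroid plexus covariate, old against young of Clu turned to 0.08 and that of Bace1 went to -0.17 (adjusted p = 0.409). This covariate is not separate from age, since most of its markers were lower in old mice. Over all alternatives Bace1 ran from -0.17 to 0.04. Without MO replicates 1 and 3 it turned to 0.02 for Aplp2, 0.04 for Bace1, 0.01 for Prnp and 0.00 for Clu, and female against male turned to -0.03 for Aplp2 and -0.04 for Bace1. Without the 3 arrays with high Aplp1, old against young of Aplp2 turned to 0.04, and female against male turned to -0.09 for Mapt probe 2 and 0.03 for Prnp. Leaving out 1 array at a time moved old against young from -0.06 to 0.04 for Aplp2, -0.11 to 0.01 for Bace1 and -0.07 to 0.01 for Prnp. It moved female against male from -0.05 to 0.04 for Mapt probe 2, -0.04 to 0.03 for Aplp2, -0.02 to 0.06 for Bace1 and -0.04 to 0.01 for Prnp. The cause was not tested. Among the 44 list genes, Apod in old against young passed without MO replicates 1 and 3 as well (adjusted p = 0.0291). Replicate 1 was its lowest old mouse. With the choroid plexus covariate Gsk3a went to 0.67 and Ncstn to -0.26, neither of them called. Mapt probe 1 in old against young ranged from 0.11 to 0.16 with adjusted p from 0.166 to 0.424, and Apoe from 0.11 to 0.17 with adjusted p from 0.338 to 1. Psen2, Gsk3a and Mapt probes 3 and 4 are dim, where background subtraction weighs most.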
